A study of Mus musculus with 6 samples.

Results

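The 200 most abundant autosomal long noncoding RNAs (lncRNAs) of mouse regulatory T cells (Tregs) were compared between WT cells and cells that lack exon 2 of Foxp3. Members were chosen by abundance: they are the rows of the deposited gene table typed as lncRNA on chromosomes 1 to 19, ranked by the sum of their read counts over all 6 libraries. The top 200 of 9466 such rows were taken, from a table of 55840 rows. The ranking used abundance over both genotypes together, so the levels are a description. It did not use the difference between the genotypes, but the list was chosen with earlier results of these data known. These 200 genes held 82.4% of all counts on autosomal lncRNA rows, and all 200 passed the filter on low counts. The boundary was narrow: the last members, C130036L24Rik and Gm15675, had 636 and 635 counts, and the rows just outside, 5830444B04Rik and Gm26648, had 634 and 628.

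Tregs are CD4 T cells that restrain immune responses and depend on the transcription factor Foxp3. The series profiled Tregs of spleen and lymph nodes as total RNA, with 3 libraries labelled WT and 3 labelled Exon2KO, the genotype that the title calls Foxp3 with a delta 2 mark. Age, sex, strain background, how the deletion was made, how the cells were sorted and whether animals were pooled are not given in the sources used here, and both genotypes are described by the same cell type label. The titles call the libraries biological replicates. Column names join the genotype to 1 of 3 numbers (2, 6 and 20) that both genotypes share, so libraries are named here as WT 2 or Exon2KO 20.

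A lncRNA is a transcript without a long open reading frame, often spliced and carrying a poly(A) tail like a messenger RNA. Some act as RNAs in the nucleus, such as the speckle RNA Malat1. Others serve mainly as precursors whose introns or exons yield small nucleolar RNAs (snoRNAs) or microRNAs, or are transcribed beside or across a coding gene. In T cells many are known only by a serial name, and no function is known for most of those described here.

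Library totals ran from 17998216 to 21003496 counts, which puts a floor of 3 counts at 0.143 to 0.167 CPM, the count scaled to library size. The smallest count of any member in any library was 17. All 7 Treg markers checked were present, with summed levels of 3150 to 3645 CPM in WT and 2841 to 3236 CPM in Exon2KO. Of these markers, 3 were called lower in Exon2KO. Foxp3 itself stood at 602 to 783 CPM in WT and 684 to 925 CPM in Exon2KO; a count over the whole gene does not check the deletion of 1 exon. Summed markers of B cells lay at 36.8 to 42.9 CPM in WT and 29.2 to 33.1 CPM in Exon2KO, for 5 of 5 markers detected. Myeloid markers (5 of 5) lay at 29.6 to 44.2 and 24.5 to 40.8 CPM, neutrophil markers (2 of 2) at 4.74 to 35.2 and 4.41 to 24.2 CPM, CD8 and NK markers (5 of 5) at 21.2 to 30.4 and 22.4 to 36.2 CPM, and erythroid markers (5 of 5) at 5.35 to 17.4 and 3.49 to 13.5 CPM, in WT and Exon2KO. Stromal markers (4 of 5, with Col3a1 at 0) lay at 165 to 191 CPM in WT and 188 to 225 CPM in Exon2KO, nearly all of it Pecam1, which T cells also express. None of the markers of other cells was called, and their part in the results was not tested.

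The promoter sequences of 3 members lower in Exon2KO are shown first, as RefSeq annotates them; which start is used in these cells was not tested. Each is a 300-base window from RefSeq (build GRCm38.p6, the assembly also called mm10), 5′ to 3′ on the strand of the gene, all 3 on the minus strand, with the 50 bases from the annotated start onward in capitals. The windows are chr12:80132795-80133094 for 2310015A10Rik, chr19:11050517-11050816 for AW112010 and chr6:129238433-129238732 for 2310001H17Rik. Their starts lay 0, 5242 and 243 bases inside the starts given in the deposited table.
2310015A10Rik: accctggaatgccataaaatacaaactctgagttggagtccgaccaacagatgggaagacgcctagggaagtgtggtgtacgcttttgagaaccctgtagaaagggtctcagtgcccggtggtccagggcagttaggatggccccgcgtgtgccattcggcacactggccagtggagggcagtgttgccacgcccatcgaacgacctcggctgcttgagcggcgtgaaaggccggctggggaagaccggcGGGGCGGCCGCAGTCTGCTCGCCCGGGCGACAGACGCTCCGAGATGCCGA
AW112010: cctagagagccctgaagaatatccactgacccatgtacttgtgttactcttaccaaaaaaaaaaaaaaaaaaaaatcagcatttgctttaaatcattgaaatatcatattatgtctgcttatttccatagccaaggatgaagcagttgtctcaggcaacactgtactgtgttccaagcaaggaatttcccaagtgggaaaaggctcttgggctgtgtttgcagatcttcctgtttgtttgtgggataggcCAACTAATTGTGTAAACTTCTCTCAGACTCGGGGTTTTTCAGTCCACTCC
2310001H17Rik: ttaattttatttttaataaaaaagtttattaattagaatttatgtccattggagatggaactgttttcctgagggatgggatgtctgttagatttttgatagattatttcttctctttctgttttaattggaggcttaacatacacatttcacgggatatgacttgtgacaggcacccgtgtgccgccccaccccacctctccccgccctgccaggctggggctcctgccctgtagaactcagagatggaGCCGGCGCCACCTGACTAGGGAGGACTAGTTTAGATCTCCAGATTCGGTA
Of the 200 members, 105 matched a RefSeq promoter by symbol, with 126 windows between them. The letters of 4 motifs were searched on both strands of these windows and of all 32841 promoters of the table. The promoters were not limited to genes tested here, so the shares do not compare sets of like expression. The core of ETS factor motifs, CGGAAG, occurred in 31.7% of the member windows and in 16.9% of all promoters. For the forkhead core, GTAAACA, the shares were 2.38% and 3.65%. For the AP-1 motif, TGANTCA, they were 3.97% and 7.81%. For the TATA box, TATAAA, they were 11.9% and 13.6%. None of the 4 occurred in the 3 windows printed, nor in a second window of 2310001H17Rik that starts 680 bases inside the table's start. The windows of Gm31718, also lower in Exon2KO, are not printed because they start 54967 and 79510 bases inside the start in the table; the first of them held the letters of the AP-1 and ETS motifs and the second held none of the 4. A match of letters describes the sequence and is not a binding site.

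By the older GENCODE release M21, 75 members were intergenic lincRNAs, 56 antisense RNAs and 48 processed transcripts. A further 10 came from bidirectional promoters, 7 were sense intronic, 1 was sense overlapping, and 3 (Gm9821, AW011738 and Gm10382) were typed there as protein coding. Serial names dominated, with 80 members named Gm and 68 named Rik, and 133 had a RefSeq symbol. The plus strand held 91 and the minus strand 109.

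Abundance was concentrated in very few genes. Malat1 (chr19:5795690-5802672, minus strand), a nuclear RNA of splicing speckles, had 454646 counts, 44.4% of the counts of all 200 members, and the 20 most abundant together had 72.0%. The median member had 1259.5 counts over the 6 libraries. Per length, the level in CPM per kilobase, averaged over libraries, ran from 0.127 for Kcnq1ot1 to 574 for Malat1. The median was 5.20 CPM per kilobase, with quartiles at 2.61 and 11.8, beside 6.78 for the 11733 protein-coding genes tested. Members were picked for high counts and the coding genes were not, so these medians do not compare like sets. After Malat1, the highest levels per kilobase were those of AW112010 (175), 2410006H16Rik (168), Gm10076 (104), Gm26917 (86.6), AU020206 (76.7) and Gm2682 (46.3). AW112010 is an RNA known from activated macrophages and T cells, and Gm26917 lies in a stretch of ribosomal RNA repeats.

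The 200 lncRNAs took 0.994%, 0.812% and 0.912% of all counts in WT 2, 6 and 20. In Exon2KO 2, 6 and 20 they took 0.909%, 0.856% and 0.931%. The groups overlapped, with WT 2 highest and WT 6 lowest of all 6. The WT mean was 0.906% ± 0.0913 and the Exon2KO mean 0.899% ± 0.0385 (SD over 3 libraries). A two-sided exact permutation test gave p = 0.9; with 3 libraries on each side it cannot go below 0.1. The sign of this difference turned when WT 2 or Exon2KO 6 was left out (0.0368 and 0.014 percentage points, Exon2KO minus WT). Malat1 alone took between 0.298% (WT 6) and 0.474% (WT 2). Without Malat1, Neat1 and Gm26917 the remaining members took 0.455% ± 0.0233 in WT and 0.445% ± 0.0273 in Exon2KO (SD, n = 3, two-sided exact permutation p = 0.6). Number 20 had the lowest such share in both genotypes (0.429% in WT 20, 0.415% in Exon2KO 20). Leaving out Exon2KO 20 turned the sign of the difference, and leaving out WT 20 made it larger. Within numbers 2, 6 and 20 this share was lower in Exon2KO each time (-0.00977, -0.00562 and -0.014 percentage points, Exon2KO minus WT). A two-sided exact sign-flip test of these 3 differences, added after the data were seen, gave p = 0.25, the smallest it can give. For all 200 members the differences within numbers were -0.0856, 0.0442 and 0.0195 percentage points (exact sign-flip p = 1).

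**Figure D1:**
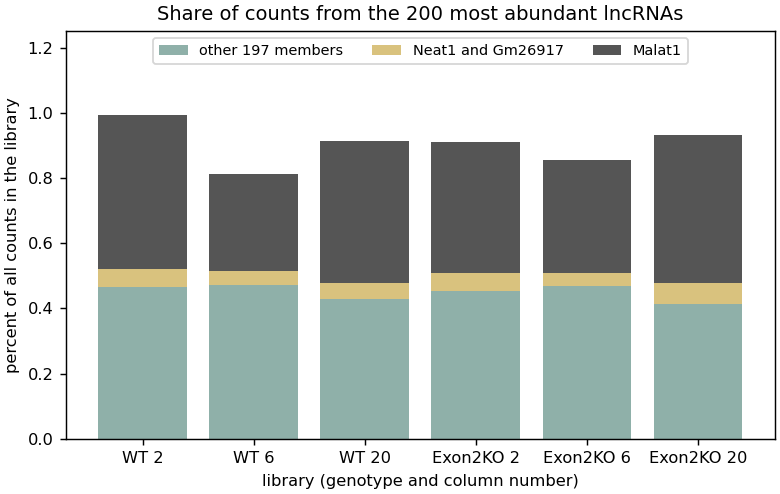
Share of all counts in each library (percent, from 0) taken by the 200 lncRNAs, stacked as Malat1 (top), Neat1 with Gm26917 (middle) and the other 197 members (bottom). The bars reach 0.812% to 0.994% and overlap between genotypes; most of their spread lies in the Malat1 segment.

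Between the genotypes 9 of the 200 lncRNAs (4.5%) were called, 7 lower and 2 higher in Exon2KO. A gene was called at a Benjamini-Hochberg adjusted p under 0.05 in edgeR's quasi-likelihood test over all 14919 genes tested. In the same test 2.33% of all tested genes were called, 0.757% higher and 1.58% lower. Among the 9889 tested genes with at least as many counts as the last member the share was 2.79%, among the 11733 coding genes 2.69%, and among 992 other tested lncRNAs 0.302%, or 3 genes. Most members lay near no change: 175 had a log2 fold change within 0.5 of zero and 4 lay beyond 1. The median was 0.04 (quartiles -0.09 and 0.20), beside 0.01 for all tested genes, with 119 values positive and 81 negative. In 31 members (15.5%) the 3 WT and 3 Exon2KO values did not overlap, 17 with Exon2KO higher and 14 lower, against 17.7% of all tested genes (8.35% higher, 9.32% lower). In bulk RNA of this kind, fewer cells that express a gene and less RNA per cell cannot be told apart.

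Libraries that share a column number deviated together. With the number as a block in the fit, 30 members (15%) were called, 17 higher and 13 lower, among them all 9. The block raised the share over all tested genes as well, to 9.72% (3.93% higher, 5.79% lower), to 12% of the genes with at least as many counts, 11.3% of coding genes and 2.02% of the other lncRNAs. Of the members, 14 had in the authors' deposited table an adjusted p under 0.05, beside 2.55% of the 24985 genes with a value there. All 9 members called by edgeR were among those 14, and all 14 were among the 30.

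**Figure D2:**
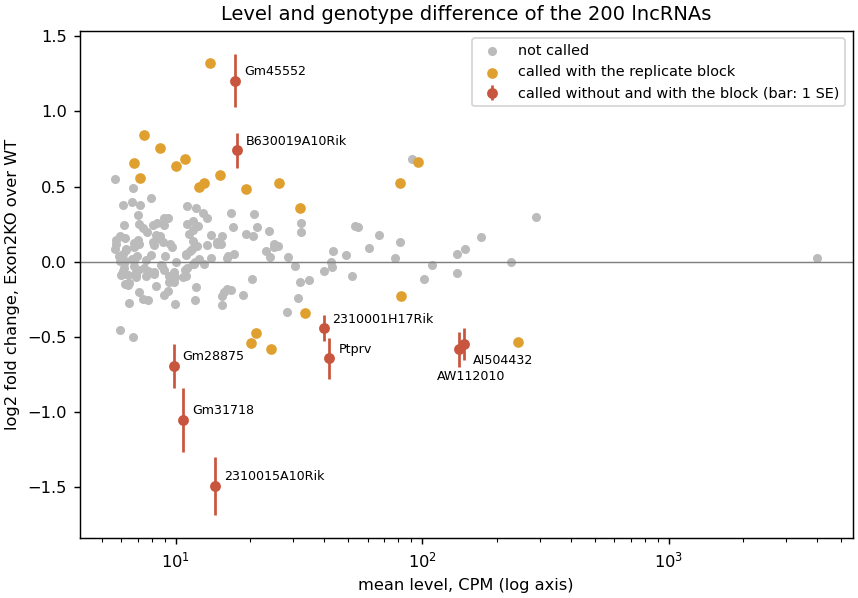
Log2 fold change (Exon2KO over WT) of each of the 200 lncRNAs against its mean level in CPM on a log axis. Red points are the 9 called with and without the block, with bars of 1 SE; orange points are those called only with the block; grey points were not called. The 9 lie between -1.49 and 1.20.

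The largest fall was that of 2310015A10Rik (chr12:80120546-80132844, minus strand), a processed transcript with no known function whose promoter is printed above. Counts were 469, 329 and 437 in WT 2, 6 and 20, against 108, 146 and 164 in Exon2KO 2, 6 and 20, the order kept below. The highest Exon2KO library had less than the lowest WT library. The level fell from 21.3 ± 3.59 to 7.57 ± 1.61 CPM (SD, n = 3), a log2 fold change of -1.49 (SE 0.19, adjusted p 0.00507). It was the only 1 of the 9 that stayed called whichever of the 6 libraries was left out (largest adjusted p 0.0353).

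Gm31718 (chr8:126812640-126908215, minus strand), an intergenic RNA, had 316, 248 and 273 counts in the WT libraries, against 139, 160 and 89 in Exon2KO. The groups did not overlap. The level went from 14.5 ± 2.2 to 6.98 ± 1.72 CPM, a log2 fold change of -1.05 (SE 0.21, adjusted p 0.0368). Gm28875 (chr12:104925501-104926689, minus strand), also intergenic, had 235, 214 and 254 counts in the WT libraries, against 133, 143 and 138 in Exon2KO. Both groups were tight, at 12.1 ± 0.447 and 7.5 ± 0.234 CPM, and apart by -0.69 (SE 0.14, adjusted p 0.0418). Even so, Gm28875 was not called in any of the 6 fits that left out 1 library.

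Among the more abundant lncRNAs, the intergenic RNAs AI504432 and AW112010 fell by similar amounts. AI504432 (chr3:107039504-107054347, plus strand) had 3032, 3419 and 3752 counts in the WT libraries, against 2079, 2710 and 1883 in Exon2KO. AW112010 (chr19:11047612-11055808, minus strand) had 2912, 3295 and 3602 counts in the WT libraries, against 2158, 2446 and 1657 in Exon2KO. For both, the 3 WT libraries lay above the 3 Exon2KO libraries, and Exon2KO 20 was lowest. AI504432 went from 176 ± 12.8 to 120 ± 17 CPM, or -0.55 (SE 0.11, adjusted p 0.0324). AW112010 went from 169 ± 12.6 to 113 ± 17.2 CPM, or -0.58 (SE 0.11, adjusted p 0.0347).

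2310001H17Rik (chr6:129208412-129238725, minus strand) lies in a region of lectin-like receptor genes, with Clec2d 21878 bases away. It had 823, 809 and 1036 counts in the WT libraries, against 596, 637 and 629 in Exon2KO. The smallest of the 9 differences was this fall of 0.44 on the log2 scale (SE 0.09, adjusted p 0.0359), from 45.8 ± 2.45 to 33.7 ± 1.46 CPM. Ptprv (chr1:135108497-135132594, minus strand) bears the name of a receptor-type tyrosine phosphatase gene, and RefSeq lists it as a transcribed pseudogene. Its counts were 981, 835 and 1172 in the WT libraries, against 547, 776 and 501 in Exon2KO, with no overlap in CPM. The level fell from 51.2 ± 4.68 to 32.8 ± 6.17 CPM, a change of -0.64 (SE 0.14, adjusted p 0.0449).

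Both members that rose lie at a coding gene. Gm45552 (chr7:45121917-45124144, plus strand) overlaps a coding gene on the opposite strand. Its level was 12.6, 10.96 and 8.21 CPM in WT 2, 6 and 20, against 27.5, 24.2 and 21.3 CPM in Exon2KO, so every Exon2KO library exceeded every WT library. On average it rose from 10.6 ± 2.2 to 24.3 ± 3.09 CPM, a log2 fold change of 1.20 (SE 0.18, adjusted p 0.0091). B630019A10Rik (chr16:23175280-23224446, plus strand) ends 294 bases before St6gal1, which encodes a sialyltransferase of the Golgi. Its counts were 264, 225 and 282 in the WT libraries, against 396, 442 and 388 in Exon2KO. The level rose from 13.3 ± 0.892 to 22.2 ± 0.444 CPM, or 0.74 (SE 0.12, adjusted p 0.0129).

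**Figure D3:**
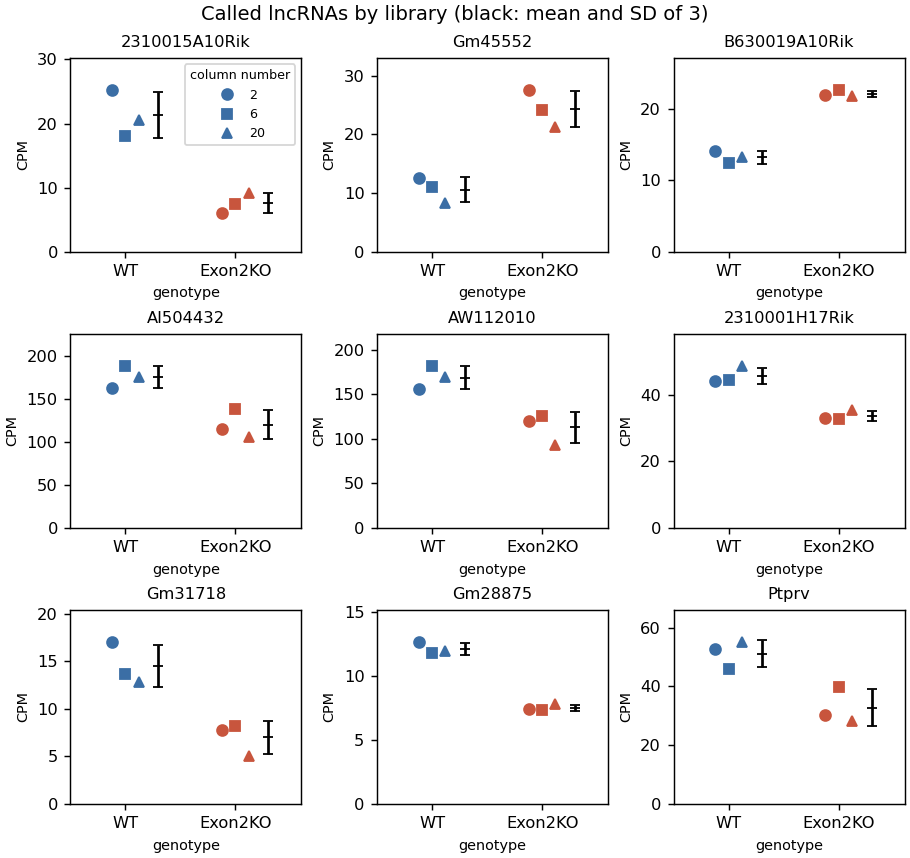
Level in CPM, each axis from 0, of the 9 called lncRNAs in every library. Blue marks WT and red Exon2KO, the symbol gives the column number, and the black bar is the mean with 1 SD of 3 libraries. In none of the 9 do the genotypes overlap; 2310015A10Rik falls from 21.3 to 7.57 CPM and Gm45552 rises from 10.6 to 24.3 CPM.

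Leaving out any 1 of the 6 libraries ended some of these calls. Over the 6 fits the log2 fold changes ran from -1.66 to -1.35 for 2310015A10Rik, -1.19 to -0.87 for Gm31718, -0.82 to -0.55 for Ptprv, -0.68 to -0.47 for AI504432 and -0.67 to -0.47 for AW112010. They ran from 1.05 to 1.34 for Gm45552, 0.70 to 0.79 for B630019A10Rik, -0.72 to -0.66 for Gm28875 and -0.48 to -0.40 for 2310001H17Rik. Without Exon2KO 2 only 2310015A10Rik remained called, with adjusted p of 0.061 for Gm45552, 0.0759 for B630019A10Rik, 0.172 for 2310001H17Rik, 0.179 for Gm28875, 0.181 for AI504432 and 0.221 for Ptprv. Without WT 6 the count was 2, without WT 2 or WT 20 it was 3, and without Exon2KO 6 or Exon2KO 20 it was 6. AW112010 reached its largest adjusted p, 0.139, without WT 6, and Gm31718 its own, 0.166, without WT 2. All 9 kept their direction in each of these fits.

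The block added 21 members, which are named here after their values were seen. Among the abundant ones was Gm2682 (chr15:60120540-60187408, minus strand), an intergenic RNA with 1631, 1481 and 1134 counts in the WT libraries, against 2331, 2566 and 1615 in Exon2KO. The groups did not overlap in CPM (74.1 ± 18.4 and 117 ± 23), and Exon2KO exceeded WT by 0.56, 0.69 and 0.77 on the log2 scale within numbers 2, 6 and 20. Its log2 fold change of 0.66 had an adjusted p of 0.289 without the block and 5.86e-06 with it. AU020206 (chr7:75769038-75782099, minus strand), ranked 3, had 5602, 5909 and 5161 counts in the WT libraries, against 3632, 5237 and 2291 in Exon2KO. The groups overlapped, since Exon2KO 6 lay above WT 20 in CPM. Its value was -0.53 (SE 0.28), with an adjusted p of 0.571 without and 0.0254 with the block; it was -0.30 without Exon2KO 20 and -0.82 without Exon2KO 6. The 21 ran from -0.58 (F730043M19Rik) to 1.32 (G630030J09Rik) in the fit without the block.

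By position against the coding genes of the table, 91 members overlapped a coding gene on the opposite strand and 24 on the same strand. A further 17 were divergent, with starts on opposite strands within 1 kb, 7 were neighbouring, with a gap of at most 1 kb, and 61 stood apart. With 5 kb in place of 1 kb, 23 were divergent, 25 neighbouring and 37 apart. Of the members called, 6 of the 7 that fell stood apart and Ptprv was divergent; the 2 that rose were antisense (Gm45552) and neighbouring (B630019A10Rik). At 5 kb, 4 of the 7 that fell stood apart, since AI504432 and Gm28875 then counted as neighbouring. None of the 24 on the same strand was called, and 2 had an unadjusted p under 0.05, against 1810 of the 14919 genes tested. With the block Gm26551 was called higher and 6530402F18Rik lower, and Gm26551 was also called in DESeq2 and in edgeR with no count filter. The block gave 7 higher and 9 lower among the 61 apart, 1 and 2 among the 17 divergent, and 1 and 0 among the 7 neighbouring. Among the 91 antisense members it gave 7 and 1. Over all tested genes it called 3.93% higher and 5.79% lower. The difference between these classes was not tested. Median log2 fold changes were -0.02 for those apart, 0.18 for the divergent, 0.12 for the neighbouring, 0.09 for the antisense and 0.04 for the same-strand members. Whether counting used strand is not given in the sources used here, so reads of a member and of a coding gene that overlaps it may not be told apart.

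The coding genes described here beside the called lncRNAs were not themselves called. St6gal1 differed by -0.11 (SE 0.08, adjusted p 0.73), opposite in sign to B630019A10Rik. Ptpn7, a tyrosine phosphatase of blood cells whose start lies 106 bases from that of Ptprv, differed by -0.21 (SE 0.08, adjusted p 0.301). Zfp36l1, an RNA-binding protein that promotes messenger RNA decay, lies 7533 bases from 2310015A10Rik and differed by -0.29 (SE 0.15, adjusted p 0.556, or 0.00669 with the block). Syne3, a nuclear envelope protein gene 3244 bases from Gm28875, differed by -0.37 (SE 0.14, adjusted p 0.318, or 0.0304 with the block). With 1 library left out, Zfp36l1 ran from -0.47 (without Exon2KO 20) to -0.17 (without WT 20), Syne3 from -0.51 (without WT 6) to -0.21 (without WT 20) and St6gal1 from -0.16 to -0.05. No coding gene lay within 10 kb of AW112010, 2310001H17Rik or Gm31718.

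AI504432 and its neighbour Kcna3 had similar values. AI504432 starts 1434 bases beyond the end of Kcna3, the voltage-gated potassium channel Kv1.3 of T cells, on the same strand. Kcna3 had 1760, 1353 and 2186 counts in the WT libraries, against 1139, 1235 and 1150 in Exon2KO, without overlap in CPM. Its change was -0.51 (SE 0.11, adjusted p 0.0525, or 0.00107 with the block), beside -0.55 for AI504432.

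Of 198 pairs of a member with a coding gene that overlapped it or lay within 10 kb, 180 had a coding gene that was tested, and in 5 of these (2.78%) the coding gene was called, against 2.69% of all tested coding genes. With the block the coding gene was called in 27 pairs (15%), against 11.3% of coding genes. No pair had both of its genes called without the block, and 9 did with it, each with the same sign in both genes. How often neighbouring genes are both called over all tested genes was not computed, and overlapping pairs may share reads. Tcf7, the gene of the T cell transcription factor TCF-1, had 11252, 12314 and 13804 counts in the WT libraries, against 19728, 23108 and 19885 in Exon2KO, a rise of 0.82 (SE 0.08, adjusted p 0.00151). Gm26551 (chr11:51949882-52269514, minus strand) overlaps it on the same strand and had 115, 75 and 120 counts in the WT libraries, against 184, 154 and 186 in Exon2KO. Its value was 0.84 (SE 0.21, adjusted p 0.0902, or 0.00311 with the block) over 834 counts in all, beside 100091 for Tcf7. Gm26551 spans other coding genes too, of which Ube2b on the same strand stood at -0.00059 and Ppp2ca, Skp1a, Cdkn2aipnl and Cdkl3 on the opposite strand at 0.05, 0.04, 0.09 and -0.41, none of them called. How many of its reads come from Tcf7 was not tested. The gene of netrin-G2, Ntng2, fell by 0.80 on the log2 scale (SE 0.11, adjusted p 0.00638), and 6530402F18Rik on the same strand stood at -0.34 (SE 0.15, adjusted p 0.42, or 0.0184 with the block). Taking for each member the partner with the most counts, across the 21 same-strand pairs the log2 fold changes of member and coding gene had Pearson's r of 0.823 and Spearman's rho of 0.606. This is a description over pairs that share the same libraries and, possibly, reads. Of the 21 coding genes, Tcf7 and Ntng2 were the 2 called. How far their pairs carry the coefficients was not tested.

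The coefficients of the other pairs were lower. Over the 93 opposite-strand pairs r was 0.233 and rho 0.229, over the 25 nearest genes within 10 kb 0.400 and 0.437, over 16 divergent pairs 0.175 and 0.179, and over 7 neighbouring pairs 0.0656 and 0.143. The difference between these coefficients was not tested. Dennd2d, which encodes a DENN domain protein, rose by 0.80 (SE 0.15, adjusted p 0.0369), and the antisense 2010016I18Rik stood at 0.52 (SE 0.24, adjusted p 0.496, or 0.0277 with the block). The phosphate transporter gene Slc20a1 rose by 0.52 (SE 0.09, adjusted p 0.0177), and its antisense 9830144P21Rik stood at 0.42 (SE 0.35, adjusted p 0.769). Cd81, a tetraspanin gene, fell by 0.74 (SE 0.12, adjusted p 0.015), whereas R74862 on the opposite strand stood at 0.16 (SE 0.27, adjusted p 0.909). Of the 5 called coding genes, Tcf7 and Ntng2 stayed called whichever library was left out. Dennd2d was called only without Exon2KO 20 or WT 20 (largest adjusted p 0.171, without Exon2KO 2), and Slc20a1 only without Exon2KO 20 (largest 0.112, without Exon2KO 2). Cd81 lost its call without Exon2KO 2, WT 2 or WT 6 (adjusted p 0.061, 0.0652 and 0.0601). All 5 kept their direction.

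**Figure D4:**
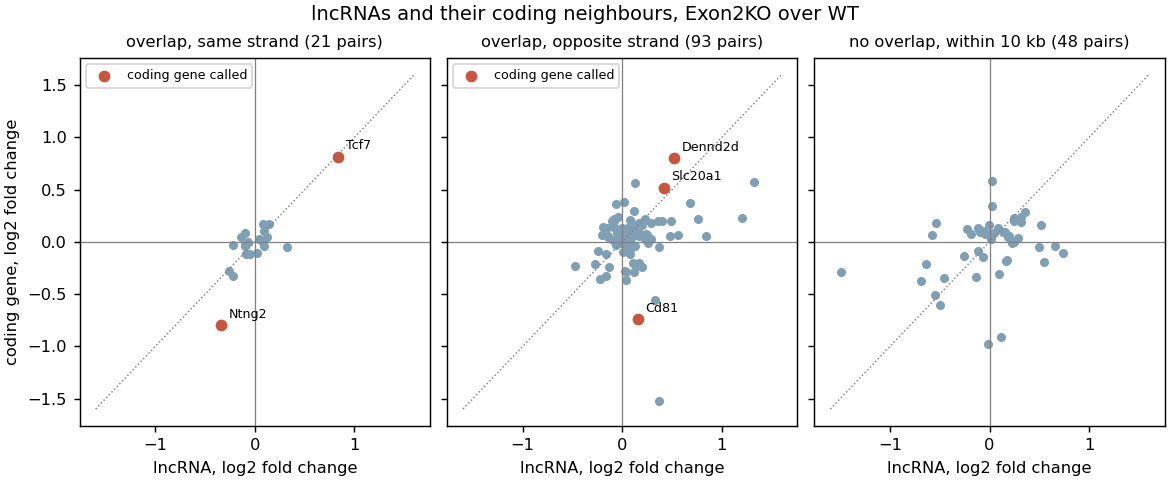
Log2 fold change (Exon2KO over WT) of a coding gene against that of the lncRNA it overlaps on the same strand (left, 21 pairs), on the opposite strand (middle, 93 pairs) or lies near without overlap (right, 48 pairs); the dotted line marks equal change. Red points are the coding genes called with all 6 libraries: Tcf7, Ntng2, Dennd2d, Slc20a1 and Cd81; the last 3 lose the call when certain libraries are left out.

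None of the RNAs on the lists of known roles was called in edgeR without the block or in DESeq2, and Mir142hg was called with the block. Of the nuclear body RNAs, Malat1 had 87084, 53851 and 90942 counts in the WT libraries, against 72831, 68491 and 81447 in Exon2KO. The groups overlapped, at a log2 fold change of 0.03 (SE 0.17, adjusted p 0.979). Neat1, the scaffold of paraspeckles, had 4907, 3954 and 4372 counts in the WT libraries, against 4270, 4293 and 4060 in Exon2KO. Its log2 value was -0.00091 (SE 0.10, adjusted p 0.998). Gm26917 of the ribosomal RNA repeats stood at 0.30 (SE 0.28, adjusted p 0.814), and at 0.04 without Exon2KO 20 and 0.51 without Exon2KO 6.

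None of the 12 snoRNA hosts among the members was called, nor with the block. Of the hosts 1, Snhg5, had an unadjusted p under 0.05, against 1810 of the 14919 genes tested. The log2 fold changes of the hosts ran from -0.24 (Snhg5) to 0.20 (Snhg12) with a median of 0.09, and 9 were positive. Gas5, the most abundant of them, carries box C/D snoRNAs in its introns and had 2738, 2684 and 2767 counts in the WT libraries, against 2576, 2526 and 2332 in Exon2KO (-0.07, SE 0.08, adjusted p 0.843). Snhg5 had 593, 672 and 693 counts in the WT libraries, against 517, 523 and 538 in Exon2KO (-0.24, SE 0.10, adjusted p 0.392). Its groups did not overlap. By position, 14 members had a snoRNA row of the table inside their bounds, and none of these was called either, with or without the block.

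The list of microRNA hosts held 4 members, Mirt1, Mir142hg, Mir17hg and Dleu2, but Mirt1 has no microRNA row of the table inside its bounds. None of the 4 was called, and 1, Mir142hg, had an unadjusted p under 0.05, against 1810 of the 14919 genes tested. By position, 6 members had a microRNA row inside their bounds; none was called, and Mir142hg and Gm26551 were called higher with the block and had an unadjusted p under 0.05. Mir142hg (chr11:87755577-87757270, plus strand) is the precursor of miR-142, a microRNA pair restricted to blood cells, and was the only 1 of the 4 called with the block. It had 216, 197 and 178 counts in the WT libraries, against 254, 300 and 247 in Exon2KO, without overlap, for a value of 0.50 (SE 0.16, adjusted p 0.2, or 0.0255 with the block). The mature forms it yields are given from RefSeq (GRCm38.p6), with the seed, bases 2 to 8, in capitals, to show what the host yields; the host RNA, not the microRNA, was measured. They lie at chr11:87756867-87756887 and chr11:87756903-87756925 on the plus strand, and their seeds differ.
mmu-miR-142a-5p: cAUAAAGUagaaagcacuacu
mmu-miR-142a-3p: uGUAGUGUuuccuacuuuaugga
Mir17hg, the host of the miR-17 to miR-92 cluster, stood at 0.25 (SE 0.22, adjusted p 0.786), Mirt1 at 0.23 (SE 0.17, adjusted p 0.724) and Dleu2, host of miR-15a and miR-16, at 0.02 (SE 0.27, adjusted p 0.993).

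The imprinted RNAs were not called. Neither they nor the RNAs of the next list had an unadjusted p under 0.05, against 1810 of the 14919 genes tested. Peg13 stood at 0.09 (SE 0.22), Kcnq1ot1 at -0.01 (SE 0.29) and Airn at 0.40 (SE 0.28), with adjusted p of 0.944, 0.996 and 0.698. Airn ran from 0.19 (without Exon2KO 20) to 0.70 (without WT 2) when 1 library was left out. Of the RNAs named in immune or stress contexts, Tug1 stood at 0.17 (SE 0.12, adjusted p 0.693) and Pvt1, beside the Myc gene, at -0.28 (SE 0.15, adjusted p 0.543). The WT and Exon2KO values of Pvt1 did not overlap, with 220, 196 and 217 counts against 171, 169 and 157. Norad, which binds Pumilio proteins and is listed as 2900097C17Rik, stood at 0.05 (SE 0.07, adjusted p 0.891). Cyrano, which triggers decay of miR-7 and is listed as 1700020I14Rik, stood at -0.02 (SE 0.20, adjusted p 0.991).

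More members were called between column numbers than between genotypes. In the fit with both terms, where 30 were called for genotype, 45 members (22.5%) were called between the 3 numbers, against 10.4% of all tested genes. Number 20 differed from the mean of 2 and 6 in 40 members (20%), 18 higher and 22 lower, against 11.1% of all tested genes (6.31% higher, 4.8% lower). For the numbers, the share among genes with at least as many counts as the last member was not computed. No label says what the numbers stand for, and whether they mark an animal pair, a litter or a day was not tested.

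G630030J09Rik (chr7:31149528-31152707, plus strand), antisense to the lipid transfer protein gene Gramd1a, showed the largest such difference. It had 241, 180 and 17 counts in the WT libraries 2, 6 and 20, against 477, 579 and 44 in Exon2KO 2, 6 and 20. Both libraries numbered 20 were low, by -3.62 on the log2 scale (SE 0.20, adjusted p 1.63e-08), while within each number Exon2KO was higher, by 1.03, 1.58 and 1.63. Its genotype difference of 1.32 (SE 1.27) had an adjusted p of 0.822 without and 2.7e-05 with the block. With 1 library left out it ran from 0.78 (without WT 20) to 1.89 (without WT 2) in the fit without the block. Gramd1a stood at 0.58 (SE 0.22, adjusted p 0.349, or 3.66e-05 with the block).

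In the other direction, both libraries numbered 20 were high for A930037H05Rik, E430024P14Rik and Gm17275, by 1.40, 1.23 and 1.15 on the log2 scale (adjusted p 0.000195, 2.47e-05 and 2.48e-05). E430024P14Rik had 173, 137 and 361 counts in the WT libraries 2, 6 and 20, against 163, 156 and 408 in Exon2KO, so its genotypes overlapped. Peg13, imprinted in brain, was lower in number 20 by -0.59 (adjusted p 6.18e-05), as was Gm2682 (-0.59, adjusted p 3.45e-05). Gm42047 (chr8:121833247-121841178, plus strand) varied widely without a call: it had 541, 2958 and 369 counts in the WT libraries, against 2486, 3486 and 319 in Exon2KO. Here WT 2 and Exon2KO 2 went apart, and the adjusted p was 0.922 for genotype, 0.653 with the block and 0.252 for number 20.

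**Figure D5:**
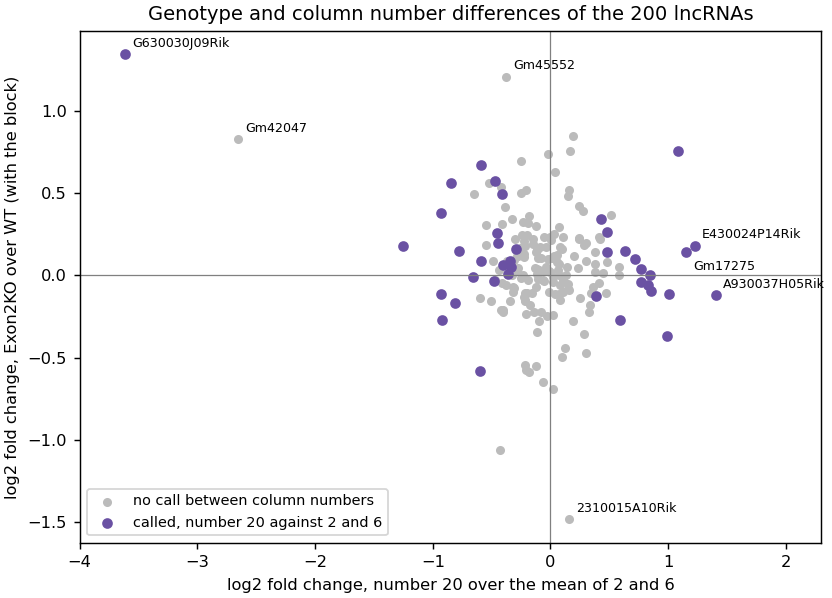
Genotype difference (log2 fold change with the block) of each lncRNA against its difference between column number 20 and the mean of numbers 2 and 6. Purple points are the 40 called for number 20; G630030J09Rik lies at -3.62, and the genotype calls 2310015A10Rik and Gm45552 lie at 0.16 and -0.38 on the number axis, neither called there (adjusted p 0.642 and 0.0543).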

How the data were processed

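RNA of 6 Treg libraries, 3 per genotype, was analysed from 1 deposited table of 55840 genes. Per the submitters' processing notes HISAT2 2.0.5, StringTie 1.3.3b, featureCounts 1.5.0-p3, DESeq2 1.16.1 and mm10 were used; their roles, the annotation and the strand setting are not given in the sources used here. Per the labels' protocols, RNA came from a column kit and libraries from an NEBNext Ultra kit. The counts are whole numbers per gene as deposited. The 6 FPKM columns were not used. Levels per length are CPM per kilobase of the deposited gene length. The authors also deposited group means as a scaled count signal, which was not used, and a comparison of the genotypes per gene: the log2 ratio, its p-value, and that p-value after adjustment.

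Columns were assigned to genotypes by name; the titles' replicate numbers 1 to 3 do not match the column numbers. Counts were tested with edgeR 4.0.16 (R 4.3.3): filterByExpr (14919 genes), TMM scaling, robust quasi-likelihood fit, Exon2KO minus WT, no covariate, two-sided, adjusted by Benjamini-Hochberg over all tested genes. Levels are CPM on TMM-scaled totals. Deviations from the genotype means correlated between same-numbered libraries (r 0.271, 0.369 and 0.494 for numbers 2, 6 and 20 over all tested genes; 0.339, 0.566 and 0.785 over the members), so blocked values stand beside results whose call they change. The pairing comes only from the column names. The common biological coefficient of variation (edgeR) went from 17.3% to 8.56% with the block. Replicate pairs differed by a chi-square per degree of freedom of 8.87 to 26.4, so none was a duplicate. P-values measure the spread between these libraries, and the count floor covers counting error only.

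Positions are those of the table; 197 of the 200 members have the same position in GENCODE M21 (GRCm38, the assembly mm10). The members, role lists and markers were chosen with earlier results of these data known. Named genes were the 20 most abundant members, all members called, role list members, coding genes overlapping called members or nearest within 10 kb, the edge of the ranking and the markers, except 1 coding gene that is not reported here; others are named where stated or as called partners and the extremes of a range. Alternatives were other scalings, filters and tools (DESeq2 1.42.0, limma-voom in limma 3.58.1), the block, each library left out, other rankings (that by CPM per kilobase was added after seeing the data) and list sizes, and other distances. Only the edgeR fit without the block was tested on simulated data. Those data had the same biological variation for all genes and no difference between column numbers. The fit with the block, DESeq2 and limma-voom were not tested in this way.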

Additional observations from a re-analysis of the deposited data

How the results depend on the processing

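The count of 9 called lncRNAs stayed at 9, the same genes, under RLE size factors, upper-quartile scaling, TMM on coding genes, at least 10 counts in every library and limma-voom, and was 8, without Ptprv, in edgeR without robust estimation. It rose to 14 (6 higher) in DESeq2 and 15 (6 higher) with no count filter, and all 9 were among these. With the replicate block on the paired column numbers it was 30 (17 higher, 13 lower). Leaving out 1 library gave 1 to 6 called, 0 to 2 higher and 1 to 4 lower; the cause was not tested beyond the smaller number of samples. The planned ranking by deposited FPKM was not run. Ranking by summed CPM per kilobase, or keeping the 85 members that overlap no coding gene, left 1 called higher, of 9 and 8 called. The top 100 held 7 called and the top 400 held 10. The median log2 fold change stayed between 0.012 and 0.072. The share difference of all 200 members ranged from -0.0543 to 0.0368 percentage points when 1 library was left out. Signs of values near zero turned, and none of these was called: Neat1 was 0.0013 in DESeq2, 3.4e-05 with RLE, 0.0014 with TMM on coding genes, 0.0068 in limma-voom and 0.0065 with the block, Kcnq1ot1 was 0.012 with the block and Snhg20 was 0.039 in limma-voom. With 1 library left out, log2 fold changes spanned -0.14 to 0.16 for Malat1, -0.074 to 0.11 for Neat1, -0.028 to 0.21 for 1810026B05Rik, -0.013 to 0.077 for 2900097C17Rik, -0.21 to 0.15 for 1700020I14Rik, -0.015 to 0.34 for Gm20559, -0.025 to 0.091 for 2410006H16Rik, -0.073 to 0.27 for Peg13, -0.11 to 0.20 for Snhg17, -0.0045 to 0.15 for Zfas1, -0.031 to 0.17 for Snhg8, -0.077 to 0.19 for Snhg6, -0.00029 to 0.32 for Epb41l4aos, -0.27 to 0.17 for Kcnq1ot1, -0.33 to 0.11 for Snhg20, -0.023 to 0.39 for Mir17hg and -0.18 to 0.28 for Dleu2. Printed values not called that kept their sign but moved by over 1.5 times ran from 0.077 to 0.28 for Tug1, -0.13 to -0.037 for Gas5, 0.097 to 0.43 for Mirt1, 0.061 to 0.29 for Snhg12, 0.39 to 0.79 for 2010016I18Rik, -0.52 to -0.23 for 6530402F18Rik and 0.16 to 2.28 for Gm42047, besides those given beside the results. Depth was not varied; the smallest count of a member in a library was 17, above the floor of 3.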
